A study of Mus musculus with 8 samples.

Results

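Complement is a cascade of secreted proteases and their substrates, and 9 of its components were followed here in cells sorted from tumor-bearing mouse lungs. They were the C1 proteases C1ra, C1rb and C1s1, the classical pathway components C4b and C2, and the central component C3. The others were the alternative pathway proteases Cfb and Cfd and the terminal component C7. The components were taken by gene symbol from the 27179 genes of the count table, and all 9 were listed there. In the classical and lectin pathways, C1r and C1s or related proteases cut C4 and C2, whose fragments form an enzyme that cuts C3. The alternative pathway reaches C3 through factor B, encoded by Cfb, and factor D, encoded by Cfd, which cuts factor B. Cleavage of C3 leads on to C5 and to a membrane pore that contains C7. Much of the complement in plasma is made by the liver, while fibroblasts, epithelium, endothelium and macrophages of many tissues make components locally.

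The cells came from C57BL/6 mice (C57BL/6J in the study's methods) carrying Eml4-Alk lung tumors, a model of non-small-cell lung cancer in which an adenovirus delivering Cas9 and guide RNAs into the airways joins the Eml4 and Alk genes. Per the labels, the mice were between 18 and 22 weeks old and 11 to 12 weeks past induction, and all received 4.5 nmol of QZ1-(PEG2K), a fluorescent peptide probe that protease cleavage activates, by vein before the lungs were taken. Live cells negative for CD45 and CD11b, markers of leukocytes and of myeloid cells, were sorted by probe signal into QZ1-hi and QZ1-lo populations, on a plot against the epithelial protein EpCAM, and the populations therefore share genotype, tumor and probe and differ in the signal. Purity after the sort was not assessed, per the study's methods. Bulk RNA-seq gave 4 libraries of each population, and the design text calls them biological replicates. Which mice gave which library, and whether animals were pooled, was not given in the sources used here, and healthy lung was not analysed here. Total counts were between 18380918 and 26847938 per library, so that 3 counts, taken as the limit of detection, were worth 0.0894 to 0.179 CPM, the counts of a gene relative to the size of its library. CPM values were scaled by the trimmed mean of M values (TMM), and adjusted p values of single genes came from the edgeR quasi-likelihood test with Benjamini-Hochberg adjustment over 15583 genes unless another tool, filter or set of libraries is named.

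Some features of the libraries bear on all values. Mitochondrial genes took 56.0% ± 10.1 of counts in the QZ1-hi libraries and 41.9% ± 8.50 in the QZ1-lo libraries (SD, n = 4 each), and the lowest and highest shares were 34.0% in QZ1-lo replicate 1 and 65.6% in QZ1-hi replicate 4. Ptprc, which encodes CD45, was detected in every library despite the gate, at 71.4, 116, 113 and 222 CPM in QZ1-hi replicates 1 to 4 and at 109, 138, 93.4 and 161 CPM in QZ1-lo replicates 1 to 4. Itgam, which encodes CD11b, lay between 29.4 and 54.8 CPM over the 8 libraries. In bulk RNA, fewer cells of a type and less RNA per cell cannot be told apart, so a higher level here is a property of the sorted population.

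Of the 9 complement genes, 7 were higher in QZ1-hi, none was lower, Cfb did not pass the test and Cfd was too low to be tested. Over all genes tested, 9.88% were called higher (1540 genes), 8.21% lower (1280 genes) and 18.1% in either direction. The median log2 fold change, QZ1-hi relative to QZ1-lo, was 2.22 over the 8 complement genes tested and 0.02 over all genes tested. Over 33 other complement genes tested it was 0.37, with 5 higher and 3 lower. The components were chosen with earlier results of these data known, so these shares and medians describe the set and do not test it. In the 7 called genes each QZ1-hi library lay above each QZ1-lo library, as did 11.9% of all genes tested. At an unadjusted p under 0.05, and with DESeq2 or limma voom at the adjusted threshold of 0.05, the count was 8 higher and none lower, Cfb being the gene added, as it was with a replicate block (described at Cfb). Without TMM scaling the median over all genes moved to -0.44 and the numbers of genes called turned to 882 higher and 2509 lower, while 7 complement genes were still called higher.

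**Figure D1:**
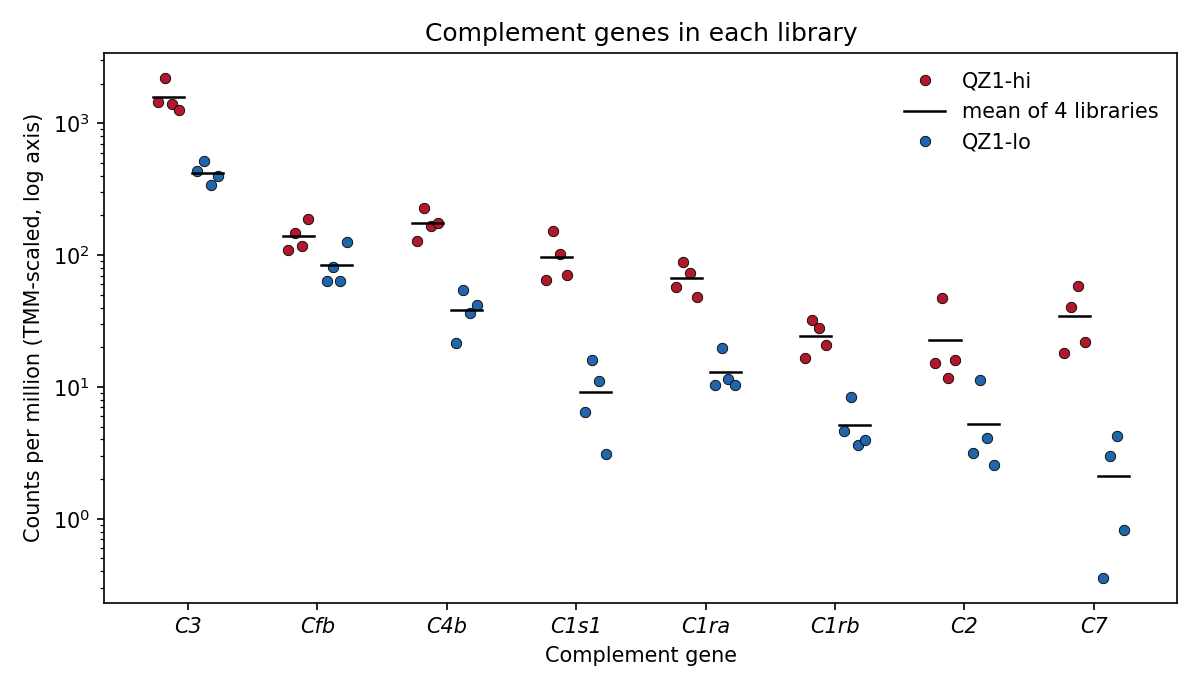
CPM (TMM-scaled, log axis) of the complement genes with counts in every library, 1 point per library, red for QZ1-hi and blue for QZ1-lo, with a bar at the mean of 4 libraries; Cfd is left out because most libraries held no count of it. The populations do not overlap in C3, C4b, C1s1, C1ra, C1rb, C2 and C7, and they overlap in Cfb.

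The C1 proteases all rose. C1ra and C1rb encode C1r, the protease of the C1 complex that activates itself and then cuts C1s, and C1s1 encodes C1s, which goes on to cut C4 and C2. The 3 genes lie close together on chromosome 6, C1ra at chr6:124512621-124523440 on the plus strand, C1s1 at chr6:124530344-124542392 on the minus strand and C1rb at chr6:124570430-124581044 on the plus strand (GRCm38.p6). C1s2, a second C1s gene, follows at chr6:124624625-124636085 on the minus strand. Since the copies are alike, it matters for the counts how far reads can be told apart. The coding sequences of C1ra and C1rb were 98.0% identical over 2118 aligned bases, with 1 identical run of 757 bases, and 50.8% of the 50-base stretches of C1ra transcripts also occurred in another gene, 48.0% in C1rb. For C1rb the share was 60.5%, and for C1s1 it was 35.1%, 21.8% with C1s2. The windows of 90 coding bases with the most differences are shown because they mark where short reads can separate the copies, with the differing bases in capitals (13 differences at coding bases 1791 to 1880 of C1ra, 20 at coding bases 1454 to 1543 of C1s1).
C1ra: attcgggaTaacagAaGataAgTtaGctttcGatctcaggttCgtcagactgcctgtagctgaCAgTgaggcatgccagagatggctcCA
C1rb: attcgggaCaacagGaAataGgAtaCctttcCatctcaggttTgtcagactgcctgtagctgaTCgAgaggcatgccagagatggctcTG
C1s1: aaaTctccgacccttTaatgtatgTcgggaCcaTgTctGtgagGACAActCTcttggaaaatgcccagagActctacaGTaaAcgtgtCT
C1s2: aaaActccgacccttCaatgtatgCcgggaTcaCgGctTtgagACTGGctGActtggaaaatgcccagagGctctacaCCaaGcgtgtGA

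C1ra stood at 56.9, 89.0, 73.6 and 48.0 CPM in QZ1-hi replicates 1 to 4 and at 10.4, 19.8, 11.4 and 10.3 CPM in QZ1-lo replicates 1 to 4. Even the highest QZ1-lo library, replicate 2, was below the lowest QZ1-hi library. Averages of 66.8 ± 18.2 and 13.0 ± 4.57 CPM (here and below ± is the SD over 4 libraries) gave a log2 fold change of 2.37 with a standard error (SE) of 0.26 (edgeR adjusted p = 0.000278). C1rb was less abundant, at 16.7, 32.1, 28.1 and 20.7 CPM in QZ1-hi and at 4.62, 8.34, 3.62 and 3.93 CPM in QZ1-lo. Its libraries again fell into separate ranges, with replicate 2 the highest in both populations. The log2 fold change of C1rb was 2.25 (SE 0.30, edgeR adjusted p = 0.000629), and the 2 genes summed gave 2.34 (edgeR adjusted p = 0.000278). C1ra took between 69.2% and 77.3% of the counts of the pair in every library. The log2 ratio of C1ra to C1rb was 1.46 ± 0.234 in QZ1-hi and 1.36 ± 0.216 in QZ1-lo (counts + 0.5), a difference of 0.10 that was within the spread of the libraries (exact permutation test over 70 assignments, two-sided, p = 0.514, adjusted over 4 ratios p = 0.514). How the counting treated reads that fit both genes was not given in the sources used here, so that the split between them is uncertain.

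C1s1 had a larger fold change than C1ra and C1rb, a difference that was not tested, with 64.5, 151, 102 and 70.0 CPM in QZ1-hi replicates 1 to 4 against 6.44, 16.0, 11.0 and 3.11 CPM in QZ1-lo. Replicate 2 was highest in both populations, and QZ1-lo replicate 4 was the lowest of all. The mean was 97.1 ± 39.9 CPM in QZ1-hi and 9.14 ± 5.61 CPM in QZ1-lo, 10.6 times lower, with a log2 fold change of 3.41 (SE 0.45, edgeR adjusted p = 0.000609). C1s2 rose as well, at 14.0, 22.4, 17.7 and 10.1 CPM against 1.85, 2.44, 1.23 and 0.491 CPM, with a log2 fold change of 3.41 (SE 0.43, edgeR adjusted p = 0.000481). An antisense gene model, Gm16567, covers 18.4% of the exon bases of C1s1, and whether strand was used in counting was not given in the sources used here.

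The recognition subunit of C1 did not follow its proteases past the threshold. C1q, which binds antibody or other targets, is built from the products of C1qa, C1qb and C1qc. C1qa had 11.9 ± 2.38 CPM in QZ1-hi and 7.89 ± 1.74 CPM in QZ1-lo, and its populations overlapped (log2 fold change 0.59, edgeR adjusted p = 0.111). The log2 fold changes of C1qb and C1qc were 0.12 and 0.80 (edgeR adjusted p = 0.887 and 0.271), with levels between 1.92 and 15.7 CPM. C1rl, a relative of C1r, gave 0.68 (edgeR adjusted p = 0.309). Masp1, a protease of the lectin pathway, was near the limit of detection, with 0.974 ± 0.660 against 0.193 ± 0.194 CPM and overlapping libraries (log2 fold change 2.29, SE 0.91, edgeR adjusted p = 0.116). Mbl2, a lectin that starts that pathway, had no count in any library. Among the 14 other genes listed for initiation, 9 were tested, 2 were higher and none was lower, beside 9.88% higher and 8.21% lower over all genes tested. The 2 higher genes, C1s2 and C4a, are near copies of C1s1 and C4b. The median log2 fold change of the list was 0.68, beside 0.02 over all genes. At an unadjusted edgeR p under 0.05, 4 were higher, C1qa and Masp1 being added, and none was lower.

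C4b and C2 supply the enzyme that cuts C3 in the classical and lectin pathways. Both lie on chromosome 17, C4b at chr17:34728139-34743902 and C2 at chr17:34862602-34882100, on the minus strand. C4b stood at 129, 229, 167 and 175 CPM in QZ1-hi replicates 1 to 4 and at 21.4, 54.4, 36.4 and 41.7 CPM in QZ1-lo. The ranges were far apart, and replicate 2 was again highest in each population. Its log2 fold change was 2.19 (SE 0.26, edgeR adjusted p = 0.000416), from means of 175 ± 41.3 and 38.5 ± 13.7 CPM. C4a, at chr17:34809092-34823460 on the minus strand, is a near copy of C4b that the reference lists as a transcribed pseudogene. It stood at 49.1 ± 16.2 against 10.9 ± 3.84 CPM, with a log2 fold change of 2.18 (SE 0.31, edgeR adjusted p = 0.000856). C4b and C4a were 96.1% identical over 5204 aligned coding bases, 34.6% of the 50-base stretches of C4b also occurred in C4a, and C4a took between 18.9% and 25.4% of the counts of the pair in every library. The window below shows where they differ most, 14 differences in capitals at coding bases 2675 to 2764 of C4b.
C4b: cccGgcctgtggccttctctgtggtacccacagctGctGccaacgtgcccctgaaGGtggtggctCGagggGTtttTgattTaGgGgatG
C4a: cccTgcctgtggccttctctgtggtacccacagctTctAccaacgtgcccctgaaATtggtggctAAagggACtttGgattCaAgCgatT

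C2, the protease that joins C4b to form that enzyme, depended more on single libraries. Its levels were 15.2, 47.2, 11.7 and 16.0 CPM in QZ1-hi and 3.13, 11.2, 4.13 and 2.54 CPM in QZ1-lo. Replicate 2 stood well above the others in each population, and QZ1-lo replicate 2 came close to QZ1-hi replicate 3. The log2 fold change was 2.10 (SE 0.54, edgeR adjusted p = 0.0200), with means of 22.5 ± 16.5 and 5.26 ± 4.04 CPM. Without QZ1-hi replicate 2 it was 1.42 (edgeR adjusted p = 0.0635), and without QZ1-lo replicate 1 or 3 it was 1.92 or 2.01 (edgeR adjusted p = 0.0570 and 0.0523), so that the call was lost each time. The gene model Gm20547, on the same strand, spans 42.8% of the exon bases of C2 and 79.5% of those of its neighbour Cfb.

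C3 was by far the most abundant of these genes. Its cleavage products coat surfaces and start the later steps of the cascade. C3, at chr17:57203967-57228136 on the minus strand, stood at 1452, 2205, 1389 and 1252 CPM in QZ1-hi replicates 1 to 4 and at 437, 518, 339 and 395 CPM in QZ1-lo. No 50-base stretch of it occurred in another gene. The lowest QZ1-hi library, replicate 4, was still well above the highest QZ1-lo library, replicate 2. The means of 1574 ± 429 and 422 ± 75.4 CPM differed 3.73 times, with a log2 fold change of 1.90 (SE 0.20, edgeR adjusted p = 0.000278).

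Cfb and Cfd encode the proteases of the alternative pathway. Cfb, at chr17:34856374-34862514 on the minus strand, encodes factor B, which takes the place of C2 in the enzyme of that pathway. It stood at 109, 147, 118 and 189 CPM in QZ1-hi replicates 1 to 4 and at 63.3, 81.0, 64.0 and 125 CPM in QZ1-lo. QZ1-lo replicate 4 was above QZ1-hi replicates 1 and 3, so the populations overlapped. The log2 fold change of 0.75 (SE 0.24) missed the threshold narrowly (edgeR adjusted p = 0.0502). It passed with DESeq2 (adjusted p = 0.0172) and limma voom (adjusted p = 0.0321), and without QZ1-lo replicate 4 it was 1.02 (edgeR adjusted p = 0.00670), while without TMM scaling it was 0.25 (edgeR adjusted p = 0.476). With the replicate number as a block, which treats libraries of the same number as a pair although no source says that they share a mouse, Cfb was called higher (log2 fold change 0.78, edgeR adjusted p = 8.5e-05). Cfd, at chr10:79890853-79892655 on the plus strand, encodes factor D and is best known from fat cells, where it is called adipsin. It had 1, 0, 2 and 0 counts in QZ1-hi replicates 1 to 4 and 0 in each QZ1-lo library, at or under the limit of detection everywhere, so no fold is given. Adipoq and Lep, which mark fat cells, had no count in any library.

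The log2 ratio of Cfb to C2, which compares the enzymes of the alternative and classical pathways within a library, was 2.84 ± 0.855 in QZ1-hi and 4.19 ± 1.14 in QZ1-lo. The populations overlapped, and the difference of -1.34 did not pass the test (exact permutation test, two-sided, p = 0.114, adjusted over 4 ratios p = 0.152). Between libraries of the same number the difference was negative in 4 of 4 pairs, between -2.06 and -0.62, for which an exact two-sided test over sign changes gave p = 0.125, the smallest that 4 pairs allow.

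C7 had the largest fold change of the set. The protein joins C5b and C6 on a membrane before the pore forms. C7, at chr15:4987750-5063773 on the minus strand, stood at 18.1, 40.7, 58.1 and 21.8 CPM in QZ1-hi replicates 1 to 4 and at 0.358, 3.01, 4.27 and 0.819 CPM in QZ1-lo. The ranges were well apart, and replicates 2 and 3 were the higher ones in each population. Means were 34.7 ± 18.5 and 2.11 ± 1.85 CPM, with a log2 fold change of 4.04 (SE 0.66, edgeR adjusted p = 0.00161). The size of that change varied, from 3.66 without QZ1-hi replicate 3 to 4.67 without QZ1-lo replicate 3 (edgeR adjusted p = 0.00491 and 0.00135). With limma voom it was 4.82 (adjusted p = 0.00207). The other terminal components did not pass the test. Hc, which encodes C5, was abundant in both populations at 233 ± 61.0 and 181 ± 37.9 CPM (log2 fold change 0.37, edgeR adjusted p = 0.255, against 0.0248 with a replicate block, and -0.07 without TMM scaling). C6 stood at 11.3 ± 4.39 and 11.4 ± 1.26 CPM (log2 fold change 0.00, edgeR adjusted p = 0.997), and C8a and C9 had no count in any library. Cfp, which encodes properdin, the stabilizer of the alternative pathway enzyme, gave 0.33 (edgeR adjusted p = 0.576). Its direction turned without QZ1-hi replicate 4 (-0.02, edgeR adjusted p = 0.982) and without TMM scaling (-0.18, edgeR adjusted p = 0.690). Of 7 other alternative and terminal pathway genes listed, 3 were tested (median log2 fold change 0.33), none was called by edgeR without a block, DESeq2 or limma voom, and none had an unadjusted p under 0.05.

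**Figure D2:**
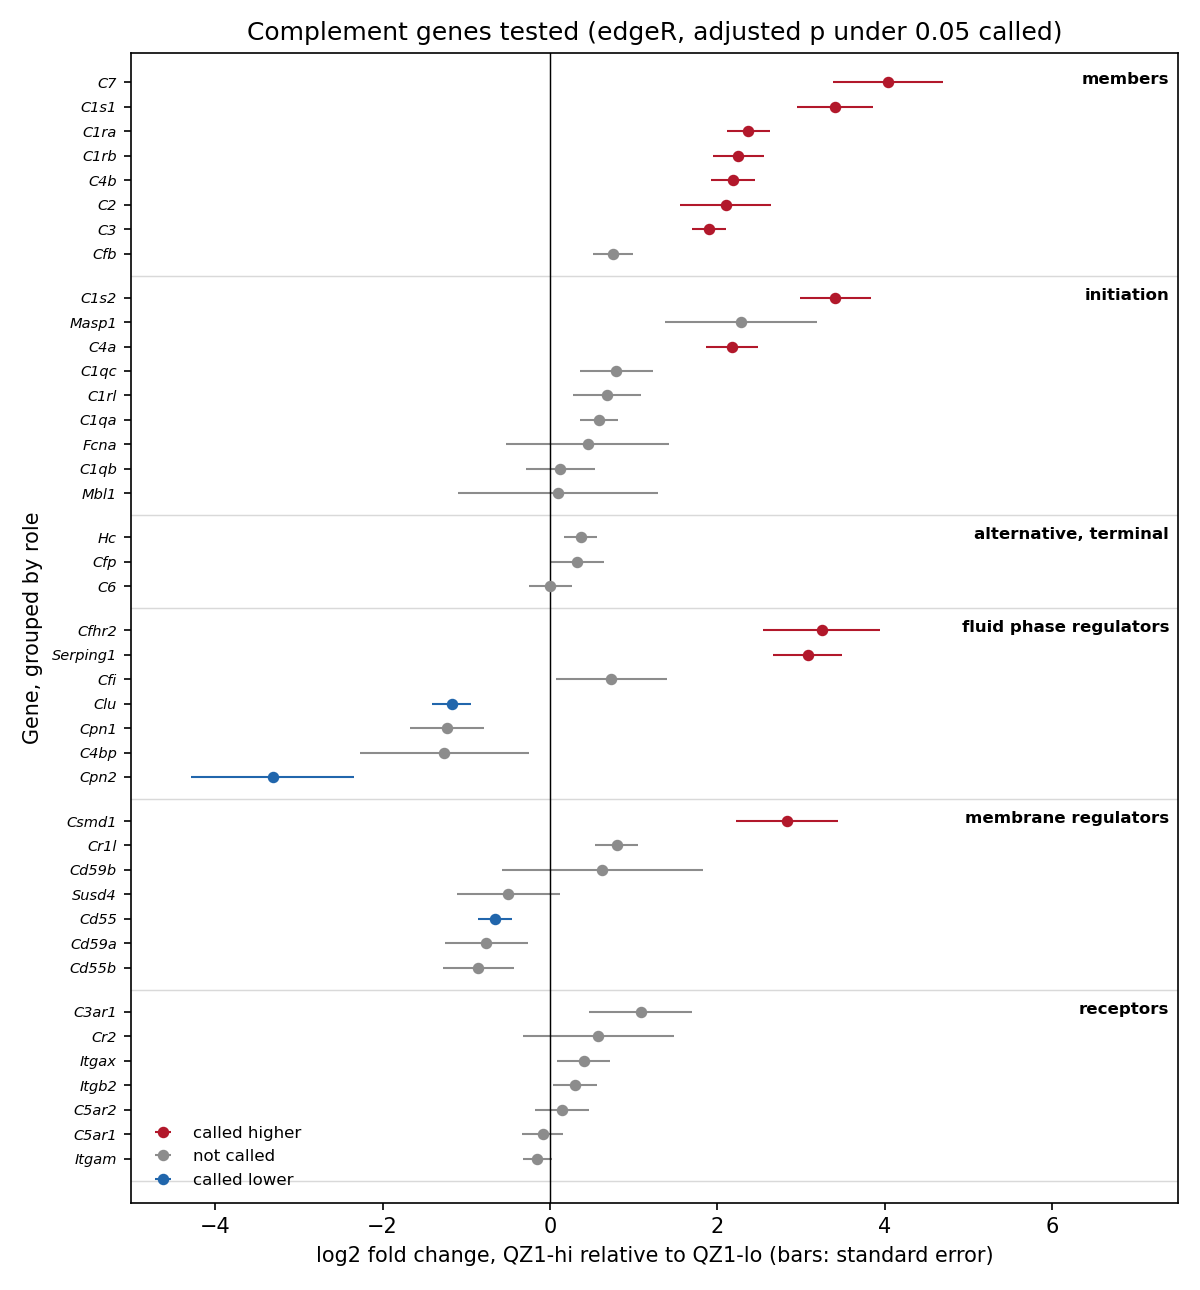
Log2 fold change (QZ1-hi relative to QZ1-lo, edgeR, bars of 1 SE) of the complement genes described, grouped by role, red where called higher, blue where called lower and grey where not called. C7 at 4.04 leads the components followed here, and Serping1, Cfhr2 and C1s2 lie beside them, while the receptors and the other terminal genes are grey.

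The fluid phase regulators moved in both directions. Of 10 listed, 7 were tested, 2 were higher and 2 were lower, beside 9.88% higher and 8.21% lower over all genes tested. The median log2 fold change of -1.17 is the value of Clu alone. C4bp (-1.26, edgeR adjusted p = 0.467) and Cpn1, also negative, were not called. Serping1, the C1 inhibitor that blocks C1r and C1s, stood at 120, 205, 263 and 133 CPM in QZ1-hi replicates 1 to 4 and at 16.6, 33.6, 27.1 and 7.94 CPM in QZ1-lo. Its populations were separate, and its log2 fold change was 3.08 (SE 0.41, edgeR adjusted p = 0.000619). Cfhr2 was low but also higher, at 2.89 ± 1.36 against 0.296 ± 0.233 CPM (log2 fold change 3.25, SE 0.70, edgeR adjusted p = 0.00769).

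Clu, which encodes clusterin, a blocker of the membrane pore, ran the other way. It stood at 1242, 1100, 841 and 575 CPM in QZ1-hi replicates 1 to 4 and at 2234, 2125, 2536 and 1581 CPM in QZ1-lo. Every QZ1-hi library was below every QZ1-lo library, with a log2 fold change of -1.17 (SE 0.23, edgeR adjusted p = 0.00490). Cpn2, a subunit of carboxypeptidase N, which trims complement fragments, was also called lower, on few counts (8 in all QZ1-hi and 108 in all QZ1-lo libraries, log2 fold change -3.31, SE 0.98, edgeR adjusted p = 0.0367), and 7 of the 8 fits that left out 1 library lost that call, the exception being the fit without QZ1-hi replicate 1. The replicate block also ended that call (edgeR adjusted p = 0.0551). In the 8 fits its log2 fold change was between -4.61 and -2.94. Cpn1, also listed, was not called (log2 fold change -1.23, edgeR adjusted p = 0.0848). DESeq2 called Cpn1 lower (adjusted p = 0.0306), while limma voom did not (adjusted p = 0.164). With edgeR it was called lower with at least 10 counts in every library (adjusted p = 0.0431) and without TMM scaling (adjusted p = 0.0398). Cfi, factor I, which cuts C3b and C4b, had 4.54 ± 4.06 and 2.74 ± 1.49 CPM (log2 fold change 0.73, edgeR adjusted p = 0.530). Without QZ1-hi replicate 1 the direction of Cfi turned (log2 fold change -0.04, edgeR adjusted p = 0.981). Without QZ1-hi replicate 4 or QZ1-lo replicate 3 it was 1.13 (edgeR adjusted p = 0.176 and 0.371).

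The log2 ratio of C1s1 to Serping1, a protease and its inhibitor, was -0.90 ± 0.377 in QZ1-hi and -1.27 ± 0.137 in QZ1-lo, a difference of 0.37 (exact permutation test, two-sided, p = 0.114, adjusted over 4 ratios p = 0.152). Such ratios within a library do not depend on the scaling between libraries.

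**Figure D3:**
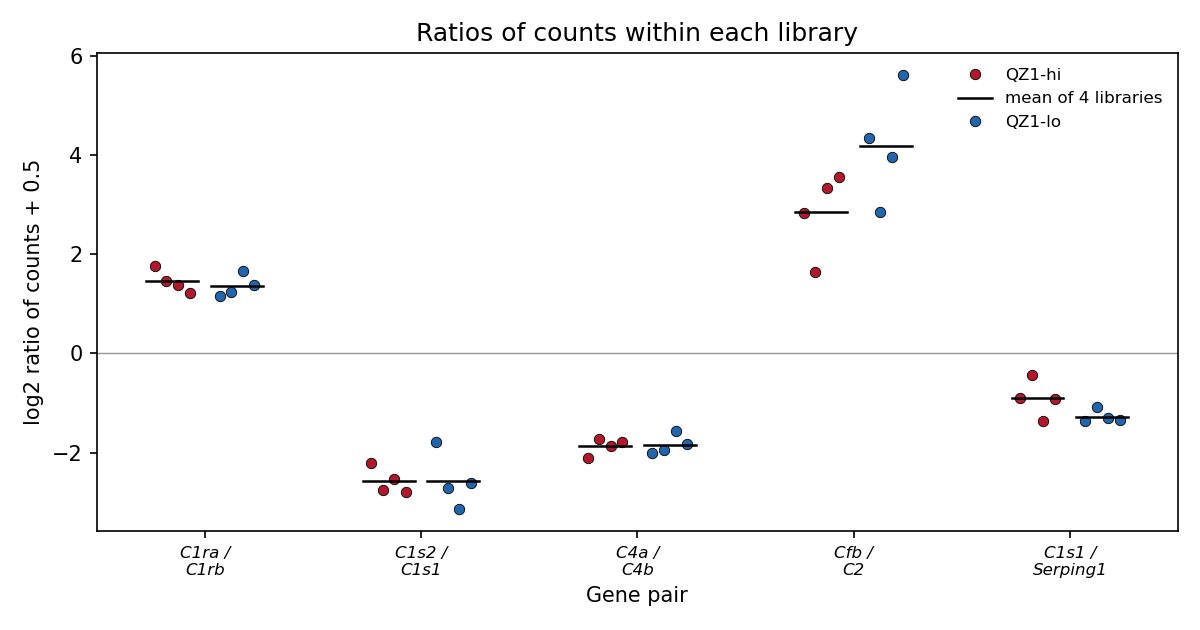
Log2 ratio of the counts (+ 0.5) of 2 complement genes within each library, 1 point per library, red for QZ1-hi and blue for QZ1-lo, with a bar at the mean of 4 libraries. The near copies C1ra and C1rb, C1s2 and C1s1, and C4a and C4b have ratios that overlap between the populations, as do those of Cfb to C2 and of C1s1 to Serping1.

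Among the membrane regulators, 7 of 8 were tested, 1 was higher and 1 was lower (median log2 fold change -0.49). Csmd1, a large membrane protein with complement control domains, was at 2.92, 4.10, 2.25 and 2.74 CPM in QZ1-hi replicates 1 to 4 and at most 0.651 CPM in QZ1-lo (log2 fold change 2.83, SE 0.61, edgeR adjusted p = 0.00752). Cd55, which speeds the decay of the C3 enzymes, stood at 25.8, 48.8, 38.3 and 25.7 CPM in QZ1-hi replicates 1 to 4 and at 57.2, 55.0, 58.6 and 47.2 CPM in QZ1-lo. QZ1-hi replicate 2 overlapped the QZ1-lo range, and the call (log2 fold change -0.65, SE 0.20, edgeR adjusted p = 0.0448) was lost in each fit that left out 1 library except the one without QZ1-hi replicate 2, with values between -0.89 and -0.50. Cr1l, the rodent regulator Crry, which acts on the same enzymes, had separate populations at 10.2 ± 1.29 and 5.85 ± 2.04 CPM but narrowly missed the threshold (log2 fold change 0.80, edgeR adjusted p = 0.0504). DESeq2 called Cr1l higher (adjusted p = 0.0262), as did limma voom (adjusted p = 0.0427), edgeR without QZ1-lo replicate 2 (log2 fold change 1.07, adjusted p = 0.0115) and edgeR with a replicate block (adjusted p = 0.0290). Without TMM scaling its log2 fold change was 0.36 (edgeR adjusted p = 0.412). Of the 8 receptors for complement fragments and C3b, 7 were tested, with a median log2 fold change of 0.30. None was called by edgeR without a block, DESeq2 or limma voom, and none had an unadjusted p under 0.05. Itgax, an integrin subunit that binds fragments of C3, was called higher with a replicate block (log2 fold change 0.39, edgeR adjusted p = 0.0176). C3ar1, the receptor for C3a, stood at 8.73 ± 4.61 and 4.12 ± 2.73 CPM (log2 fold change 1.08, edgeR adjusted p = 0.287, against 0.0164 with a replicate block), and C5ar1, the receptor for C5a, at 14.8 ± 4.02 and 15.6 ± 3.68 CPM. Over all 47 other complement genes listed, 33 were tested, 5 were higher and 3 were lower, with a median log2 fold change of 0.37, beside 9.88% higher and 8.21% lower over all genes tested. The 5 higher genes were C1s2, C4a, Serping1, Cfhr2 and Csmd1, and the 3 lower ones Clu, Cpn2 and Cd55. C1s2 and C4a share sequence with C1s1 and C4b. How reads that fit both copies were counted was not given in the sources used here, so their calls may not be independent of those components.

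The order of levels was compared per kilobase of exon, since the genes differ in length. Shared sequence was not corrected for. Another gene held 73.0% of the 50-base stretches of Cfb and 60.5% of those of C1rb, and none of those of C3 and C7. How reads from such stretches were counted was not given in the sources used here, so the ranks are uncertain for genes that share sequence. In QZ1-hi, C3 led with 306 ± 83.4 CPM per kilobase, followed by Cfb at 49.8 ± 12.7, C1s1 at 31.0 ± 12.7, C4b at 30.7 ± 7.25, C1ra at 22.4 ± 6.09, C7 at 12.9 ± 6.92, C1rb at 10.04 ± 2.88, C2 at 5.81 ± 4.27 and Cfd at 0.0428 ± 0.0592. In that order, C3 was clear of Cfb and C2 was clear of Cfd in every library, while the ranges of all other neighbours overlapped. In QZ1-lo, C3 again led with 82.1 ± 14.7 CPM per kilobase, followed by Cfb at 29.5 ± 10.3, C4b at 6.75 ± 2.40, C1ra at 4.35 ± 1.53, C1s1 at 2.92 ± 1.79, C1rb at 2.11 ± 0.898, C2 at 1.36 ± 1.04 and C7 at 0.790 ± 0.690, with Cfd at 0. There C3, Cfb and C4b were clear of each other, C7 was clear of Cfd, and the other neighbours overlapped. C7 thus ranked sixth in QZ1-hi and eighth in QZ1-lo. The summed level of the 9 genes was 2136 ± 541 CPM in QZ1-hi and 579 ± 99.6 CPM in QZ1-lo, most of it C3.

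The genes whose profiles over the 8 libraries were most like those of the complement genes were found by the root mean square difference of log2 CPM, each gene centred on its own mean, among 12601 genes with a mean log2 CPM of at least 1. The nearest to C1rb was C1ra (0.201 log2 units), and the nearest to C4b was C4a (0.159), which are the pairs that share sequence. For C1ra the nearest were Arl4d (0.178) and Gpx3 (0.194), for C1s1 Dcn (0.220), and for C2 Cdh11 (0.339) and Osr1 (0.384). C7 was nearest to Lama2 (0.321) and Ces2g (0.396). C3 lay closest to Oaf (0.123) and Arhgef25 (0.126), and Cfb to Slc8a1 (0.119) and Dab2 (0.141). The distance includes the difference between the populations, so genes of similar log2 fold change come out near each other. Oaf had 1.90 beside 1.90 for C3, and Lama2 had 4.02 beside 4.04 for C7. Dcn, which encodes the matrix proteoglycan decorin, is also one of the fibroblast markers examined next, and Cdh11 and Lama2 are known from mesenchymal cells. The other neighbours were not assigned to a cell type, and a shared cell of origin was not tested.

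Markers of several cell types moved with the same contrast. Of the endothelial markers 14 of 15 tested were higher and none was lower, and of the fibroblast markers 10 of 13 tested were higher and none was lower. For these lists and those below, the shares over all genes tested were 9.88% higher and 8.21% lower. The endothelial list summed to 2827, 1800, 3677 and 1916 CPM in QZ1-hi replicates 1 to 4 and to 356, 389, 624 and 389 CPM in QZ1-lo, with Cd36 the most abundant. For the fibroblast list the sums were 2686, 3383, 3225 and 2016 CPM in QZ1-hi and 1041, 735, 711 and 570 CPM in QZ1-lo, with Fn1 the most abundant. Both lists were thus higher in every QZ1-hi library. Lymphatic markers were higher in 4 of 5 tested, pericyte markers in 4 of 6 and smooth muscle markers in 2 of 4 (1 lower).

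Markers of epithelium ran the other way in part. Airway markers were lower in 6 of 6 tested, led by Scgb1a1, the club cell secretory protein, at 415 ± 254 against 2160 ± 991 CPM. Among 10 alveolar markers 6 were lower, among them Epcam (58.7 ± 16.3 against 132 ± 17.4 CPM), and 1 was higher, Sftpc, the surfactant protein of alveolar type II cells. Of the 8 macrophage markers tested none was called by edgeR without a block, DESeq2 or limma voom, and none had an unadjusted p under 0.05. Their sum was 3182, 3710, 3300 and 6968 CPM in QZ1-hi replicates 1 to 4 and 2490, 3025, 2232 and 4573 CPM in QZ1-lo, most of it Lyz2, which alveolar type II cells also express. At every replicate number the QZ1-hi sum was above the QZ1-lo sum, and values with a replicate block are not given for these markers. QZ1-hi replicate 4 was the highest in Lyz2, in Ptprc and in Cfb. Markers of other leukocytes were lower in 1 of 6 tested, and blood cell markers were higher in 2 of 6, the platelet genes Ppbp and Pf4. The other 4 blood cell markers, Hba-a1, Hba-a2, Hbb-bs and Alas2 of red cells, had log2 fold changes between -1.63 and -1.49 and were not called, although 3 of them had an unadjusted edgeR p under 0.05. The blood cell list summed to 503 ± 370 CPM in QZ1-hi and 1485 ± 1202 CPM in QZ1-lo (median log2 fold change -1.54). Neither fat cell markers (3 tested) nor hepatocyte markers (2 tested) were called. Alb, the albumin gene of hepatocytes, lay between 0.123 and 2.43 CPM.

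Among markers of mesothelium, the lining of the lung surface, Upk3b, Wt1 and Lrrn4 were highest in replicate 2 of each population. Upk3b, a mesothelial marker, stood at 16.4, 126, 17.6 and 26.4 CPM in QZ1-hi replicates 1 to 4 and at 3.22, 16.8, 1.38 and 1.15 CPM in QZ1-lo. Wt1, a transcription factor of these cells, stood at 7.58, 27.3, 5.78 and 8.10 CPM in QZ1-hi and 1.13, 3.13, 0.796 and 0.0409 CPM in QZ1-lo. Replicate 2 of each population was also its highest library in C1ra, C1rb, C1s1, C2, C3 and C4b. Of 5 mesothelial markers 4 were higher and 1, Krt19, the most abundant and shared with other epithelia, was lower. DESeq2 and limma voom each called 3 higher and 1 lower, and the populations overlapped in Msln, Upk3b and Lrrn4. The list summed to 173, 453, 136 and 162 CPM in QZ1-hi and to 301, 353, 345 and 256 CPM in QZ1-lo. Without QZ1-hi replicate 2 the log2 fold changes were lower for these genes, with C2 at 1.42, and only C2 lost its call among the 7. The part of fibroblasts, endothelium, mesothelium, macrophages or the mitochondrial share in the levels of the complement genes was not tested.

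**Figure D4:**
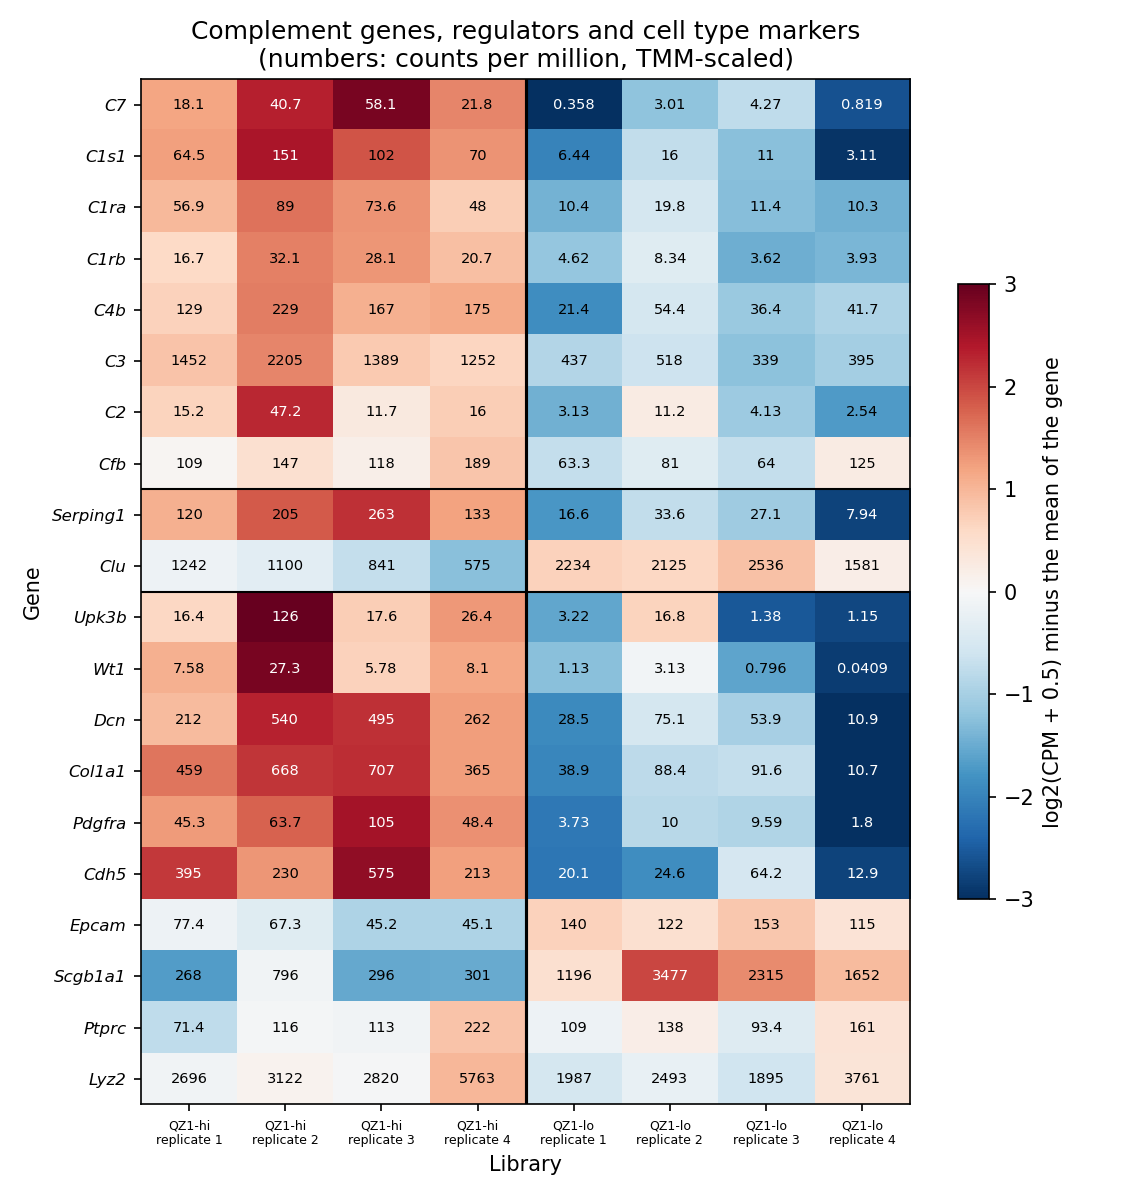
CPM (numbers) of complement genes, regulators and cell type markers in each of the 8 libraries, colored by the log2(CPM + 0.5) minus the mean of the gene, red above and blue below. C7, C1s1 and Serping1 are red in the QZ1-hi columns together with Dcn, Col1a1, Pdgfra and Cdh5, and QZ1-hi replicate 2 is the darkest red for C2, Upk3b and Wt1.

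The promoters of C1ra, C1rb and C7 are given because the first 2 genes moved together and C7 changed most. Of the 9 components, RefSeq promoter sequences were matched for 6 (not for C2, C4b and Cfb), and the 250 bases before the start were searched on both strands for letters known from promoters of immune genes. The gamma-activated sequence, searched as TTCNNNGAA, was held by 7.02% of all 32851 promoter windows of that length. The TATA box, searched as TATAAA, was in 12.4% of them, and the CCAAT box in 33.8%. The AP-1 site (TGANTCA) was in 6.75%, the interferon-stimulated response element in 2.98% and the NF-kB site in 3.90%. A TTCNNNGAA match, which reads the same on both strands, lay 119 to 111 bases before the start of C1rb and 164 to 156 bases before that of C7, and TATAAA lay on the reverse strand in the last 6 bases before the start of C7. The other windows, of C1ra, C1s1, C3 and Cfd, held none of these letters. C1ra and C1rb were identical at 93 of the 99 bases aligned between their windows, the last bases of the C1ra window and the first of the C1rb window. The windows are offset because the annotated starts differ. The TTCNNNGAA match of C1rb lies after the aligned bases, so the stretch of C1ra that would face it was not searched. The windows are chr6:124512371-124512620 (plus strand), chr6:124570180-124570429 (plus strand) and chr15:5063774-5064023 (minus strand) of GRCm38.p6, written 5′ to 3′ toward the start of the gene, with the matched letters in capitals. A match is a description of letters and not of binding.
C1ra: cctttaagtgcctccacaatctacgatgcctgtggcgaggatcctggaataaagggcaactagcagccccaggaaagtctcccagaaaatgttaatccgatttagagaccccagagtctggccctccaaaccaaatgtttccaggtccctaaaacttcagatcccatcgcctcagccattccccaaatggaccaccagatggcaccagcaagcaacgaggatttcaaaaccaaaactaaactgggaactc
C1rb: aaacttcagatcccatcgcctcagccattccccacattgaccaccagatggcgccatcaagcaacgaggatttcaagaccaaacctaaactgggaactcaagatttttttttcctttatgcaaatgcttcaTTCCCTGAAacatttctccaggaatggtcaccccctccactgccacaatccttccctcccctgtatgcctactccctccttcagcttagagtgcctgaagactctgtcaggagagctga
C7: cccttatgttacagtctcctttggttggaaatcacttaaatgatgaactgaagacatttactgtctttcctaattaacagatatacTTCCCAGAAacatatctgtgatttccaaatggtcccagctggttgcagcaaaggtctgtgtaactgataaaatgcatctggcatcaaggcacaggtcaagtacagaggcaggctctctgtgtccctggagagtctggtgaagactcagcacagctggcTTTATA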

How the data were processed

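Bulk RNA-seq libraries of the 4 QZ1-hi and 4 QZ1-lo samples were grouped by the GEO labels, and their replicate numbers, given in the order of deposit, only name them. The authors deposited raw counts per Entrez Gene identifier, made with Rsubread from reads of a stranded total RNA kit; per the labels the build was mm10, and the submitters' processing notes name DESeq2. Aligner, annotation and strand setting were not given in the sources used here. Of 27179 identifiers, 25275 were paired with a symbol from the reference tables and 1904 were not.

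QZ1-hi was compared with QZ1-lo by the quasi-likelihood test of edgeR 4.0.16 in R 4.3.3, after TMM scaling and filterByExpr (minimum count 10, minimum total 15), at a Benjamini-Hochberg threshold of 0.05. A SE was obtained from the log2 fold change and the root of its F value. Cfd did not pass the filter. Alternatives used DESeq2 1.42.0, limma 3.58.1, other scalings and filters, leaving out each library in turn, and a replicate block chosen after seeing the data. The procedure was tested on simulated data, and the results of that are not reported here.

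Ratios within a library were compared by exact permutation tests over 70 assignments and adjusted over 4 ratios. A further regulator, its ratio and its profile are not reported here, and it was left out of the lists after their values were known. Levels per kilobase used the exon union of GENCODE M21, and shared stretches of 50 bases were counted in its transcripts. Promoters are RefSeq sequences of GRCm38.p6. Named genes are the 9 components, listed complement genes and cell type markers, genes sharing sequence, and for each component the 2 nearest profiles. The components and lists were chosen with earlier results of these data known. Since the reads carry no molecular identifiers, limits of detection cover counting error only.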

Additional observations from a re-analysis of the deposited data

Results flagged for a closer look

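In 4 of 90 groups of 4 libraries examined, 1 library lay further from its neighbours than Dixon's 95% critical value (gap divided by range) allows, where chance gives about 1 in 20. C1ra was at 19.8 CPM in QZ1-lo replicate 2 and between 10.3 and 11.4 CPM in the other QZ1-lo libraries. C2 was at 47.2 CPM in QZ1-hi replicate 2 and between 11.7 and 16.0 CPM in the others. Fcna, a lectin pathway recognition gene, was at 1.91 CPM in QZ1-hi replicate 1 and between 0.179 and 0.289 CPM in the others. Susd4, a membrane regulator, was at 4.58 CPM in QZ1-hi replicate 1 and between 1.48 and 1.79 CPM in the others.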

How the results depend on the processing

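Of the 7 components called higher, C1ra, C1rb, C1s1, C3, C4b and C7 kept their call and direction in every alternative run, and C2 lost its call in 4 of them. With 1 library left out, 6 to 8 components were called higher and 0 lower, 5 to 6 other complement genes higher and 1 to 2 lower, and 1136 to 1506 genes higher and 938 to 1201 lower over the whole table. Without TMM scaling, 882 genes were higher and 2509 lower, with 5 other complement genes lower. With at least 10 counts in every library, 3 other complement genes were called higher, since fewer genes were tested. A threshold of 0.01 left 902 genes higher and 665 lower and 1 other complement gene lower, and C2 (adjusted p = 0.0200) was not called. Cfb passed the edgeR threshold without the filter on low counts (adjusted p = 0.0363), with at least 10 counts in every library (0.0453), with mitochondrial and ribosomal RNA genes removed (0.0492) and without QZ1-hi replicate 1 (0.0423), and it was furthest from it without TMM scaling (log2 fold change 0.25, adjusted p = 0.476). Without 1 library, the log2 ratio difference of C1ra to C1rb lay between -0.0056 (without QZ1-hi replicate 1, reversed) and 0.196, that of Cfb to C2 between -1.79 and -0.87, and that of C1s1 to Serping1 between 0.21 and 0.52. Exact permutation tests gave p = 0.0286 for Cfb to C2 without QZ1-lo replicate 2 (-1.79) and for C1s1 to Serping1 without QZ1-hi replicate 3 (0.52). The causes of these changes were not tested. A replicate block was added after seeing the data. The labels give no replicate numbers, those used here follow the order of deposit, in which the populations alternate, and whether libraries of the same number share a mouse was not given in the sources used here. Deviations of log2 CPM from the population mean correlated at 0.244, 0.175, 0.220 and 0.317 between QZ1-hi and QZ1-lo libraries numbered 1 to 4, and each library correlated best with its own number, a hint from the data and not from the design. With the block, 2004 genes were higher and 1636 lower, 8 components higher (Cfb added) and none lower, and 9 other complement genes higher (Hc, Cr1l, C3ar1 and Itgax added) and 2 lower (Cpn2 lost). With 4 pairs, no ratio can pass an exact paired test, and those of C1ra to C1rb and of C1s1 to Serping1 gave p = 0.75 and 0.25. Depth limits Cfd, Masp1 and Cpn2, which were at or near the limit of detection.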
